A study of Rattus norvegicus with 53 samples.

Results

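GIMAP proteins (GTPases of the immunity-associated protein family) were followed here in blood cells of healthy Brown Norway (BN) rats that had been cultured with serum or plasma of other rats or their own. Members were all probe sets whose annotated symbol starts with Gimap, and 6 of the 31042 tested probe sets met this rule, measuring 5 of the 14217 genes that the array annotation names. Gimap4, Gimap5, Gimap6 and Gimap7 had 1 probe set each, and Gimap1 had 2, named 1380210_at and 1382328_at. The rat RefSeq gene table lists 7 Gimap genes, of which Gimap8 and Gimap9 were not analysed here. All 6 probe sets passed a filter on low values, with a mean over the arrays above the median of all probe set means.

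GIMAP proteins are GTP-binding proteins related to the septins and are found mainly in lymphocytes, where most sit on internal membranes such as those of the endoplasmic reticulum, lysosomes or lipid droplets. The family is known above all for Gimap5, since the lymphopenia (lyp) mutation of the BioBreeding (BB) rat is a loss of Gimap5 that leaves the animal with few T cells in the blood. BB rats of the DRlyp/lyp line carry it and develop autoimmune diabetes, whereas the related DR+/+ line does not. In this design the lyp genotype belonged to the serum donor, while every Gimap level reported is that of the BN responder cells.

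The responder cells were peripheral blood mononuclear cells, that is lymphocytes and monocytes, of BN donors 180 days old, cultured for 6 h with 20% serum or plasma, and 53 arrays formed 8 groups. Of these, 6 arrays had serum of 40-day-old DRlyp/lyp rats treated with human IL-1RA (interleukin-1 receptor antagonist) at 350 ug/kg/day for 10 days from day 30, and 6 had serum of 40-day-old DRlyp/lyp rats given PBS over the same days. Groups of 4 arrays each had serum of 60-day-old DRlyp/lyp rats with IL-1RA added to the culture, the same serum alone, serum of 60-day-old DR+/+ rats, and autologous BN serum with interleukin-1B (IL-1B) added. Allogeneic serum, taken from BN rats other than the cell donor, was used on 15 arrays, and 10 had autologous BN serum (the cell donor's own), which served as controls. The labels give 180 days as the age for both BN sera, so the BB and BN sera differ in donor age as well as strain. Serum donors that were already hyperglycaemic were not used. Sources conflict on the 40-day IL-1RA group, since its sample labels describe serum supplemented with the protein while the design describes treated rats, and the design was followed here. Nothing in the labels ties replicates to separate animals or cultures. The p-values therefore measure only the spread between these arrays, and the number of arrays limits their precision.

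Clustering of all probe sets other than Gimap placed the arrays in 2 sets that the labels do not describe. Both 40-day groups, autologous replicates 1 to 6 and allogeneic replicates 1 to 3 made up the first array set (21 arrays). All 60-day groups, the IL-1B group, autologous replicates 7 to 10 and allogeneic replicates 4 to 15 made up the second (32 arrays). The age of the BB serum donor therefore cannot be told apart from the array set, and every comparison was made within a set. As a sign of RNA quality, 3′ actin signal exceeded 5′ actin signal by a median log2 difference of 3.64 in the first set and 2.59 in the second. In the first set it averaged 2.39 ± 1.47 with allogeneic serum (SD, n = 3) and 3.91 ± 0.39 with autologous serum (SD, n = 6). The lowest array of the second set was DR+/+ serum replicate 4, at 1.13. The CD3 chain genes, which define T cells, had a mean log2 level between 9.35 and 11.10 over all arrays, and the endothelial markers one between 4.33 and 5.24. Platelet markers lay between 8.14 and 10.79, erythroid markers between 7.74 and 10.91 and monocyte markers between 5.31 and 7.18. Platelet and erythroid transcripts were thus measured beside those of the mononuclear cells.

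Promoters of the genes are shown because all pairs of members were positively correlated across the arrays of the second set, though not of the first. RefSeq held the promoter of all 5 genes in build GRCr8, as 250 bases before and 50 bases after the transcript start, all within 1 cluster on chromosome 4. The windows lie at chr4:78967047-78967346 for Gimap4, chr4:79001166-79001465 for Gimap7, chr4:79018223-79018522 for Gimap1 and chr4:79024975-79025274 for Gimap5, each on the plus strand and each 5′ to 3′. Capitals mark 2 motifs, GGAAGT or its reverse complement ACTTCC (a short form of the ETS factor motif), and TGTGGT or ACCACA (RUNX factors).
Gimap5: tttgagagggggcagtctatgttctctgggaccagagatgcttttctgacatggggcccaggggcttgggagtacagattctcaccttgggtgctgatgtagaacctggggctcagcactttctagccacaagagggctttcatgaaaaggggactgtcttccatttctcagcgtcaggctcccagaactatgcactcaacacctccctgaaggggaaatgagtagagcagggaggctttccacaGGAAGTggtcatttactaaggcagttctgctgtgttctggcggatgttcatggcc
Gimap4: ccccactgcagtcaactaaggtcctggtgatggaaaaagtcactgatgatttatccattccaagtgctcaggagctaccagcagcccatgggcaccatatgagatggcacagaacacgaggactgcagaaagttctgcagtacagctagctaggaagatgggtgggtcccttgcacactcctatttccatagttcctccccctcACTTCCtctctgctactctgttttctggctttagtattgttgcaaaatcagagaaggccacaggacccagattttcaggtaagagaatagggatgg
Gimap1: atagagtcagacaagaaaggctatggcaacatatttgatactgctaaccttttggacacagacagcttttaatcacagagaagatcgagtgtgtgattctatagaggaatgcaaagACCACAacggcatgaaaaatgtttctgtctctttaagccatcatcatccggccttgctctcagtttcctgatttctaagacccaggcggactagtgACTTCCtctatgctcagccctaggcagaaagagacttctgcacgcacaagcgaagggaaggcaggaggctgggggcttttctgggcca
Gimap7: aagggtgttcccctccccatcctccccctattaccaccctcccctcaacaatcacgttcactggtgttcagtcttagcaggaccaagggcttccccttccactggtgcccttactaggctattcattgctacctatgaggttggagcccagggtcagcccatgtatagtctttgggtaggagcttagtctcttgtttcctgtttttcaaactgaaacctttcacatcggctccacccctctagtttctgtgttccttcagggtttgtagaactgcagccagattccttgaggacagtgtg
The ETS letters stood in the window of 4 of the 5 genes, at 5 bases before the start in Gimap5, 38 in Gimap1, 46 in Gimap4, and at 2 places in Gimap6 (chr4:78989957-78990256, minus strand), against 22.6% of 33469 rat promoters of the same length. Gimap7 held none. The RUNX letters stood in Gimap1 alone, against 17.3% of promoters. None of the 5 held the GATA letters AGATAA (11.6% of promoters), the TCF/LEF letters TCAAAG (16.1%) or the E-box CAGGTG (18.8%), searched on both strands. These 5 motifs were chosen with the Gimap promoter letters in view, and a match is a description of letters, not a bound site.

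Gimap5, the gene lost in lyp rats, was measured at overlapping levels under the sera of a set. In the second array set the arrays of replicates 1 to 4 read 9.70, 10.08, 10.11 and 9.12 with 60-day DRlyp/lyp serum plus IL-1RA. With DRlyp/lyp serum alone they read 9.91, 10.39, 10.25 and 9.15, and with DR+/+ serum 9.62, 10.03, 9.96 and 8.90, all as log2 expression. With IL-1B in autologous serum they read 9.64, 10.28, 9.84 and 9.05. In each of these groups replicate 4 was the lowest and replicates 2 and 3 were the highest, so the groups overlapped almost fully. Within each replicate number, DRlyp/lyp serum alone gave the highest reading of these sera, which is given as a description. Allogeneic serum gave a lowest value of 8.10, a median of 8.84 and a highest of 10.27 over 12 arrays, and autologous replicates 7 to 10 gave 9.41, 10.33, 10.09 and 8.85. In the first array set Gimap5 averaged 10.43 ± 0.22 with serum of IL-1RA-treated rats, 10.51 ± 0.21 with serum of PBS-treated rats (SD, n = 6 each) and 10.35 ± 0.31 with allogeneic serum (SD, n = 3), against 10.42 ± 0.36 with autologous serum (SD, n = 6). The order of the group means in the second set ran from allogeneic serum at 8.96 through DR+/+ (9.63), autologous (9.67), IL-1B (9.70) and DRlyp/lyp plus IL-1RA (9.75) to DRlyp/lyp serum at 9.92, and no pair of neighbours in it differed by more than the larger of their SDs, apart from the step of 0.67 above allogeneic serum, whose SD was 0.63. The autologous arrays serve in several of these comparisons, which are therefore not independent.

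**Figure D1:**
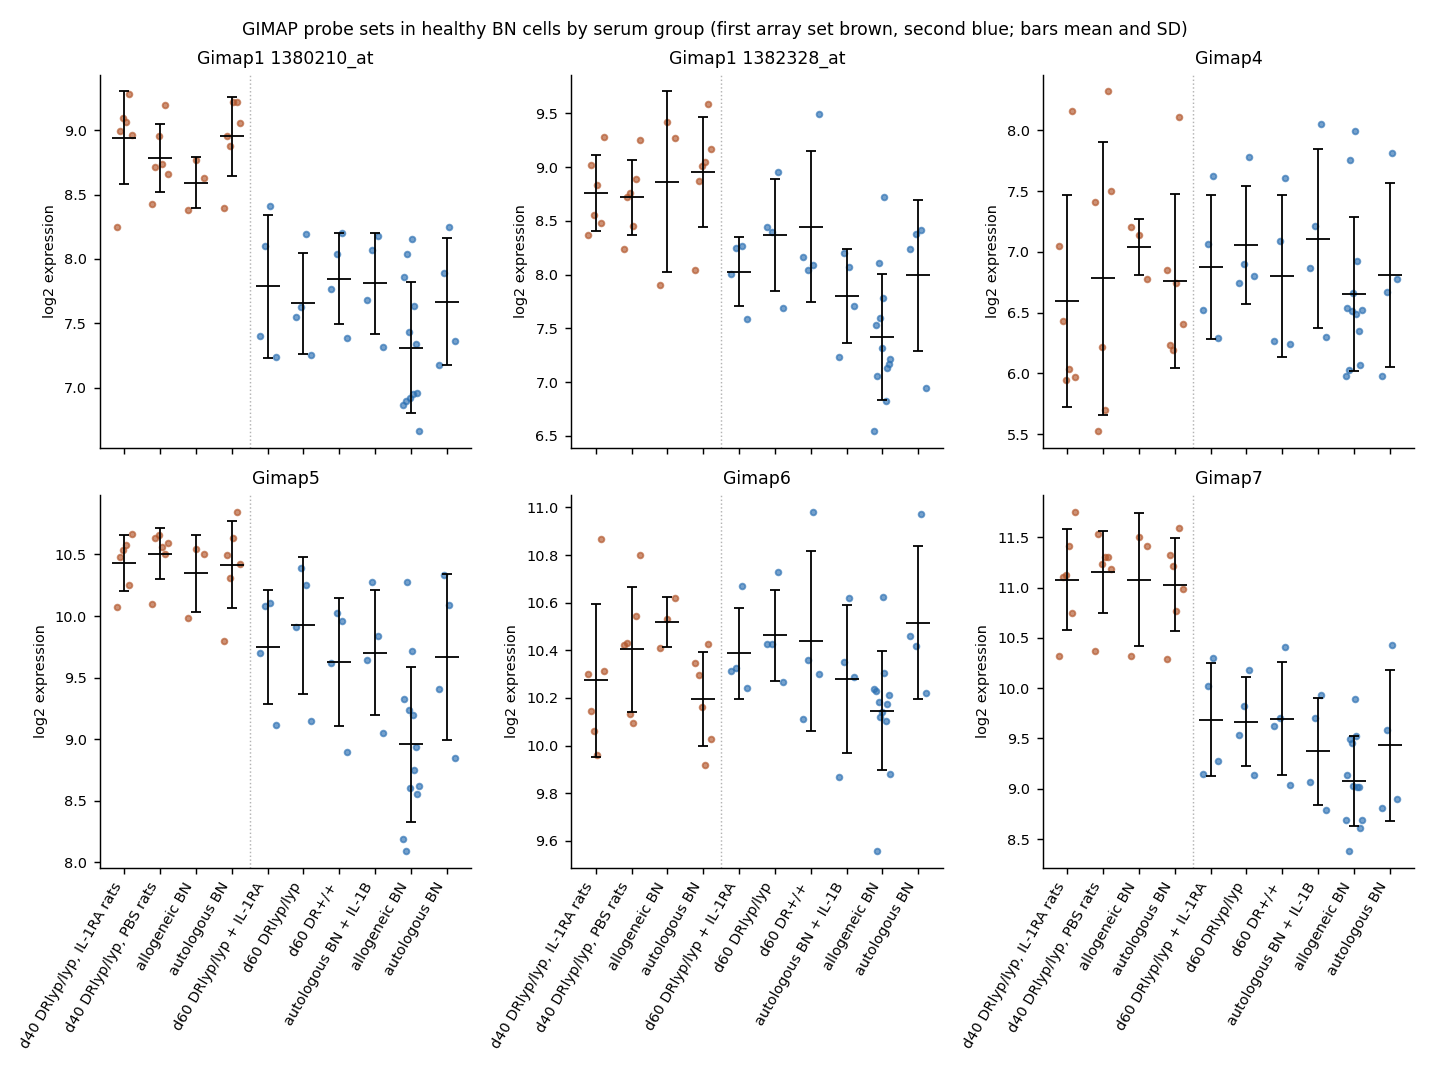
Log2 expression of the 6 GIMAP probe sets (vertical axis, 1 panel each) in the serum groups of the first array set (brown) and the second (blue), 1 point per array, with black bars for the mean and SD. The groups of a set overlap in every panel, and allogeneic serum of the second set has the lowest mean there for 6 of 6 probe sets.

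Gimap7, whose human protein can pair with other GIMAP proteins and stimulate their GTP hydrolysis, also overlapped between the sera of a set, and of the 6 probe sets it had the widest gap between sets. Its second-set replicates 1 to 4 read 9.15, 10.02, 10.30 and 9.27 with DRlyp/lyp serum plus IL-1RA, 9.53, 9.82, 10.18 and 9.14 with DRlyp/lyp serum, and 9.63, 9.70, 10.41 and 9.04 with DR+/+ serum. Replicate 3 was the highest under each of these sera. Over the first array set Gimap7 ran from 10.28 to 11.75 with a median of 11.21, and over the second from 8.39 to 10.43 with a median of 9.37.

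Gimap4, a member linked to the timing of T-cell death in rodents, had the largest SD of any group and probe set, 1.13 among the 6 arrays with serum of PBS-treated rats. Its level in replicate 5 of the first set was 8.16 with serum of IL-1RA-treated rats, 8.32 with serum of PBS-treated rats and 8.11 with autologous serum. The other 5 replicates of those groups lay between 5.53 and 7.50. The Gimap4 arrays of replicate 5 thus stood above all others in each of the 3 groups.

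Gimap6, which in mice and humans is tied to autophagy in lymphocytes, had the narrowest range, from 9.56 to 10.98 over all arrays. Its first-set means were 10.27 ± 0.32 with serum of IL-1RA-treated rats, 10.40 ± 0.26 with serum of PBS-treated rats (SD, n = 6 each) and 10.52 ± 0.11 with allogeneic serum (SD, n = 3), against 10.20 ± 0.20 with autologous serum (SD, n = 6). Gimap1, which mature T and B cells of the mouse need to persist, gave group means of 8.59 to 8.95 in the first set and 7.31 to 7.85 in the second by probe set 1380210_at. By 1382328_at they were 8.72 to 8.95 and 7.42 to 8.45. The 2 Gimap1 probe sets disagreed in part, since their residuals from the group means correlated at r = 0.39 over 53 arrays, less than those of Gimap5 and 1380210_at (r = 0.80). In DR+/+ serum replicate 4, 1382328_at read 9.50 while the other 3 arrays of the group read 8.04 to 8.16, and 1380210_at had its lowest value of the group there, at 7.39.

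The question of whether serum of lymphopenic or diabetes-prone rats changed Gimap expression in healthy cells was put to 10 pairs of groups within the array sets. No Gimap probe set passed the test in any of 10 comparisons within an array set (limma over 31042 probe sets, Benjamini-Hochberg adjusted p under 0.05), and the group ranges overlapped in 60 of 60 differences. At an unadjusted p under 0.05 there were 2 of 60, both from allogeneic against autologous serum of the second set. The intervals leave room for sizeable effects, since the 95% interval reached past a log2 difference of 1 in either direction in 10 of the 60. Their width reflects the number of arrays and also the spread between replicate numbers, which this fit did not take out.

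For 60-day DRlyp/lyp against autologous serum the count was 0 of 6, where 0.0354% of all probe sets were called. Gimap5 differed by 0.26 (95% interval -0.41 to 0.92) and Gimap7 by 0.24 (-0.46 to 0.93). The autologous arrays of this set shared no replicate number with the 60-day or IL-1B groups, so these contrasts ran unpaired. Taken in order, autologous replicates 7 to 10 had CD3 chain means of 9.94, 10.31, 10.97 and 9.52. DRlyp/lyp replicates 1 to 4 had 10.02, 10.37, 11.10 and 9.74. In that order Gimap5 and Gimap1 1382328_at were higher with DRlyp/lyp serum at each place, and the other probe sets ran both ways. Whether these arrays pair was not tested. For DR+/+ against autologous serum the count was again 0 of 6, with 1.35% of all probe sets called, and the largest difference was 0.45 (-0.27 to 1.18) in Gimap1 1382328_at. Between the lines, DRlyp/lyp against DR+/+ serum gave 0 of 6 with 0% of all probe sets called. Gimap5 differed by 0.30 (-0.37 to 0.96), an interval that includes the spread between replicate numbers. Within each replicate number Gimap5 was higher with DRlyp/lyp than with DR+/+ serum. The Gimap1 probe set other than 1382328_at was lower in each, and the remaining probe sets ran both ways. With the replicate number as a block 0 of 6 were still called (lowest limma adjusted p = 0.701).

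Blocking or adding interleukin-1 in culture gave no call either. With IL-1RA added to DRlyp/lyp serum 0 of 6 were called (0% of all probe sets), and Gimap5 differed by -0.17 (-0.84 to 0.49) from DRlyp/lyp serum alone. With IL-1B added to autologous serum 0 of 6 were called (0% of all probe sets), and the largest difference was 0.30 (-0.69 to 1.29) in Gimap4. In the 40-day groups, serum of IL-1RA-treated against PBS-treated rats gave 0 of 6 (0.00322% of all probe sets), and the 6 differences lay between -0.18 and 0.16. Serum of PBS-treated rats against autologous serum gave 0 of 6 (0% of all probe sets), as did serum of IL-1RA-treated rats against autologous serum (0% of all probe sets), and there the differences lay between -0.24 and 0.21.

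Allogeneic against autologous serum was the comparison in which the family came nearest to the threshold. In the second set all 6 differences were negative, with a median of -0.36 against a median near 0.00 over all probe sets, and 0 of 6 were called where 0.00966% of all probe sets were. Gimap5 averaged 8.96 ± 0.63 with allogeneic serum (SD, n = 12) and 9.67 ± 0.68 with autologous serum (SD, n = 4), a log2 difference of -0.71 (95% interval -1.25 to -0.17, limma adjusted p = 0.163). Gimap6 differed by -0.37 (-0.69 to -0.05, limma adjusted p = 0.216). Other marker lists differed beside the family. The T-cell marker mean there was 8.11 ± 0.34 with allogeneic serum (SD, n = 12) and 8.38 ± 0.48 with autologous serum (SD, n = 4), and 2 of 19 T-cell markers had a positive difference, with a list median of -0.34. Natural killer cell markers had 1 of 11 positive (median -0.33), platelet markers 0 of 9 (-0.19) and endothelial markers 6 of 6 (0.19), and none of these lists had a called gene. Their part in the Gimap differences was not tested beyond the T-cell covariate that follows and the platelet covariate, under which no Gimap probe set was called. With the T-cell marker mean as a covariate the Gimap5 difference was -0.38 (limma adjusted p = 0.314) and that of Gimap7 was 0.02. In bulk samples fewer T cells and less RNA per T cell cannot be told apart. In the first set 0 of 6 were called (1.07% of all probe sets) and the differences ran both ways, from -0.36 in Gimap1 1380210_at to 0.32 in Gimap6. The difference between the 2 sets was tested as an interaction, and 0 of 6 passed (0.696% of all probe sets), with the lowest limma adjusted p at 0.210 in Gimap6.

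**Figure D2:**
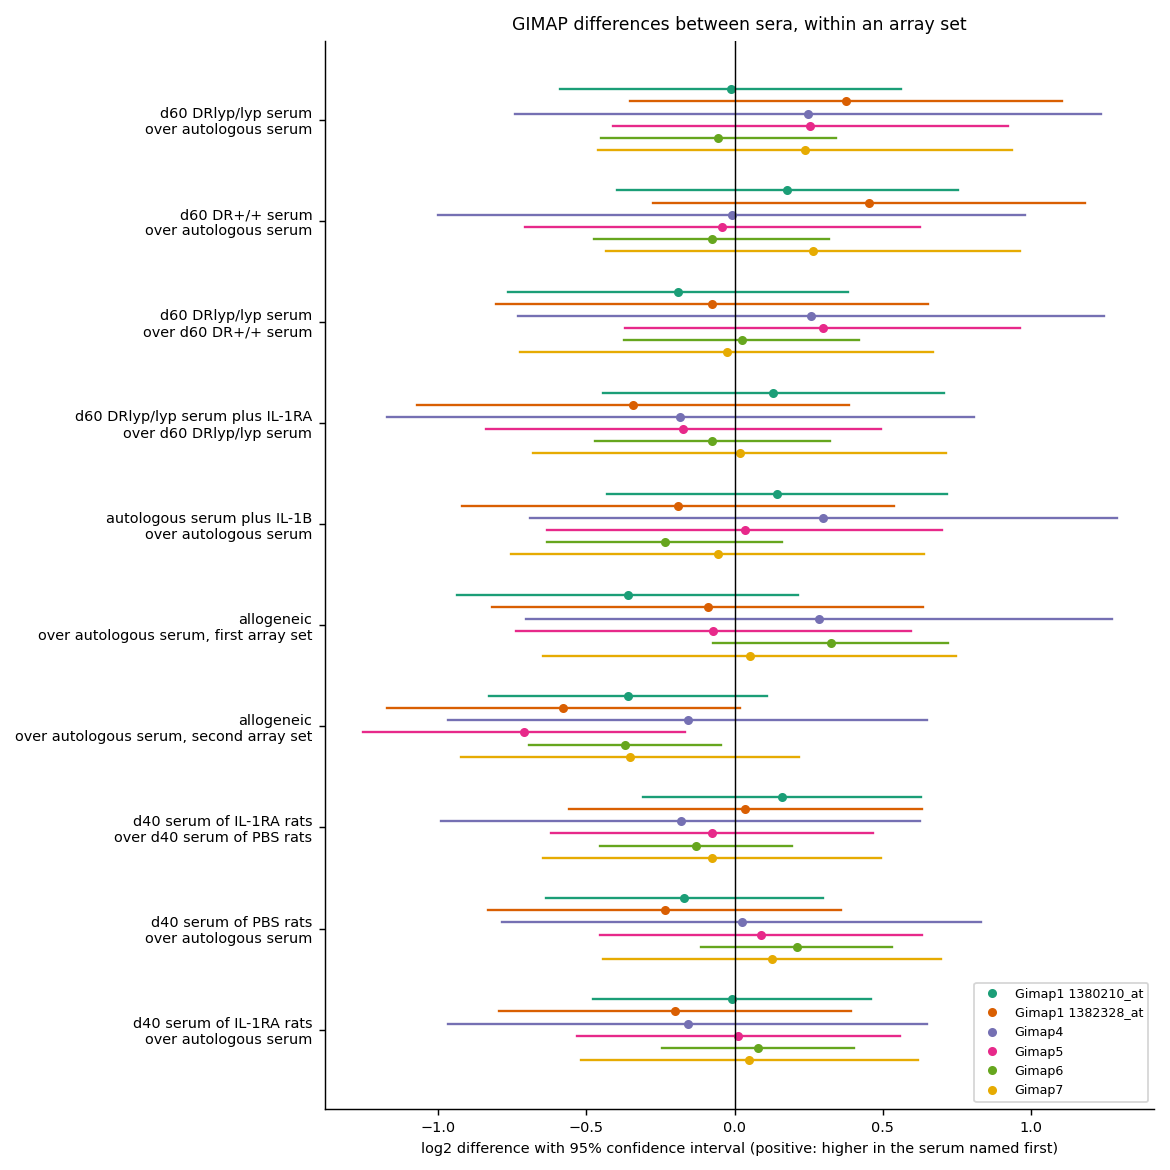
Log2 difference (horizontal axis) of each GIMAP probe set with its 95% confidence interval in the 10 comparisons within an array set, 1 colour per probe set. The intervals cross 0 except those of Gimap5 and Gimap6 for allogeneic over autologous serum in the second array set.

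Allogeneic serum was then taken as the reference for the BB sera, a choice made after the values were seen. Under 60-day DRlyp/lyp serum Gimap5 was higher by 0.97 (SE 0.27, limma adjusted p = 0.0116) and Gimap1 1382328_at by 0.95 (SE 0.30, limma adjusted p = 0.0197) than under allogeneic serum. These were 2 of 6, where 21.5% of all probe sets were called, and the count is not set apart from that background. The background moved with single arrays too, at 4.93%, 12.3%, 7.23% and 29.6% of all probe sets without DRlyp/lyp replicate 1, 2, 3 or 4. Gimap5 stayed called in 13 of 16 fits that left out 1 array, and it was not called without DRlyp/lyp replicate 1, 2 or 3 (limma adjusted p of 0.0512, 0.0631 and 0.0669). Gimap1 1382328_at was likewise lost without each of these 3 arrays (limma adjusted p of 0.0780, 0.0523 and 0.128). Under DR+/+ serum 1 of 6 was called, where 25.5% of all probe sets were. It was Gimap1 1382328_at, higher by 1.03 (limma adjusted p = 0.0105), which was 0.68 without DR+/+ replicate 4 (limma adjusted p = 0.0826), the array in which the other Gimap1 probe set was the lowest of its group. Without that array 3 others were called, Gimap5 (0.91, limma adjusted p = 0.0167), Gimap7 (0.84, limma adjusted p = 0.0343) and Gimap1 1380210_at (0.69, limma adjusted p = 0.0343), where 33.9% of all probe sets were called. The background was 12.8% without DR+/+ replicate 3 and lower still without replicate 1. Over all 16 fits without 1 array Gimap5 was called in 4, Gimap1 1380210_at in 3 and Gimap7 in 1. In the first set 0 of 6 were called for serum of PBS-treated rats (0.0258% of all probe sets) and 0 of 6 for serum of IL-1RA-treated rats (0.367%).

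Lists of related genes were counted in the same fits. None of the 19 measured T-cell markers was called in the 10 comparisons within a set. Of 17 measured genes of lymphocyte survival and homing, 1 was called, Klf2, a transcription factor of quiescent T cells, which was higher by 1.35 (limma adjusted p = 0.0234) with DR+/+ than with autologous serum. Of 17 measured genes next to the Gimap cluster in the RefSeq gene table, none was called. Beside Klf2, the same comparison called 3 of 12 monocyte markers as higher, 2 of 9 platelet markers as lower and the cytotoxic gene Gzmb as lower. It called 1.35% of all probe sets, a count that moved between 43 and 1118 when 1 array was left out. The counts against allogeneic serum stand beside the 21.5% of all probe sets called for DRlyp/lyp and the 25.5% called for DR+/+ serum. DRlyp/lyp serum gave 3 higher and 0 lower of the 19 T-cell markers, a share below that background, among them Cd8a (0.88) and Lat (1.05), an adaptor of the T-cell receptor. It gave 6 higher and 1 lower of the survival and homing genes, among them S1pr1 (0.53), the receptor that lets lymphocytes leave tissue, and Foxo1 (-1.12). DR+/+ serum gave 3 higher and 1 lower of the T-cell markers, with Tcf7, a T-cell transcription factor, at 1.56, and 6 higher of the survival and homing genes, with Klf2 at 1.84. The genes next to the cluster gave 2 higher and 2 lower with DRlyp/lyp serum and 4 higher and 4 lower with DR+/+ serum, that is 4 and 8 of 17 genes in all, the first of these near the 21.5% background. Gpnmb and Malsu1 were higher and Aoc1 and RGD1559747 lower under either serum, with Gpnmb at 1.90 under DRlyp/lyp and 1.76 under DR+/+ serum, and DR+/+ serum added Krba1 and Zfp775 as higher and Tmem176b and Igf2bp3 as lower. Markers of other cells moved beside these. Under DRlyp/lyp serum 6 of 12 monocyte, 3 of 11 natural killer cell and 2 of 6 B-cell markers were higher, and 2 of 9 platelet and 2 of 6 endothelial markers were lower. Under DR+/+ serum 6 of 12 monocyte, 2 of 11 natural killer cell and 1 of 6 B-cell markers were higher, and 5 of 9 platelet, 2 of 6 endothelial and 1 of 11 natural killer cell markers were lower. No neutrophil or erythroid marker was called under either serum. Their part in the Gimap values was not tested.

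Among groups that share replicate numbers within a set, the number went with more of the variation than the serum for most probe sets. The allogeneic arrays of both sets and the autologous arrays of the second were left out of these shares. Of these, the second-set allogeneic arrays had the lowest mean of that set for every Gimap probe set. The difference between array sets does not enter the shares either. Over the 4 groups of the second set that share numbers 1 to 4 (16 arrays), the number held 91.8% of the sum of squares of Gimap5, 88.2% of Gimap1 1380210_at, 88.0% of Gimap4, 84.9% of Gimap7 and 73.8% of Gimap6, against a median of 36.2% over all probe sets. Gimap1 1382328_at was the exception at 7.56%. The serum group held 3.60% to 25.6%. In an F-test (limma) of both terms, which was added after the values were seen, the number was called for 5 of 6 probe sets, where 17.2% of all probe sets were called, and the group for 0 of 6, where 0.142% were. Gimap5 averaged 9.72 ± 0.13, 10.19 ± 0.17, 10.04 ± 0.18 and 9.05 ± 0.11 in numbers 1 to 4 (SD, n = 4 sera each). Number 4 lay below the other numbers with no overlap. Gimap7 averaged 9.34 ± 0.28, 9.81 ± 0.15, 10.21 ± 0.21 and 9.06 ± 0.20.

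In the first set, over 3 groups that share numbers 1 to 6 (18 arrays), the number held 59.5% to 81.1%, against a median of 48.9% over all probe sets. It was called for 6 of 6 probe sets, where 29.6% of all probe sets were called, and the group for 0 of 6, where 0.00966% were. Number 1 carried much of this for Gimap7, which averaged 10.32 ± 0.04 in number 1 (SD, n = 3 sera) and 11.16 to 11.32 in the others. Gimap5 averaged 9.99 ± 0.16 in number 1 and 10.50 to 10.59 in the others. Without number 1 the number was no longer called for Gimap5 (limma adjusted p = 0.987), Gimap7 (0.958), Gimap1 1380210_at (0.293), Gimap1 1382328_at (0.383) or Gimap6 (0.0867). Without number 1 the share of all probe sets called was also lower, at 7.75% against 29.6% with all numbers, so calls were lost over all probe sets and not in the family alone. Gimap4 lost its call without number 5 (limma adjusted p = 0.0814), Gimap6 also without number 4 or 5 (0.149 and 0.0821), and Gimap1 1382328_at also without number 6 (0.0634). Single arrays mattered as well, since Gimap5 and Gimap7 were each lost in 2 of 18 fits without 1 array, Gimap1 1382328_at in 1 and Gimap6 in 8. In the second set only Gimap5 stayed called without any 1 number (highest limma adjusted p 0.0141), whereas Gimap1 1380210_at, Gimap4 and Gimap7 missed without number 3 (0.0941, 0.111 and 0.0874) and Gimap6 without number 1, 2 or 3 (0.0541, 0.0965 and 0.720). Without 1 array, Gimap6 was lost in 10 of 16 fits there and the other 4 in none. The share of all probe sets called in the second set was 1.34% without number 3 and 3.82% without number 2, against 17.2% with all numbers. The labels do not say what a number stands for, and whether it marks a cell donor, a day or a preparation was not tested.

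**Figure D3:**
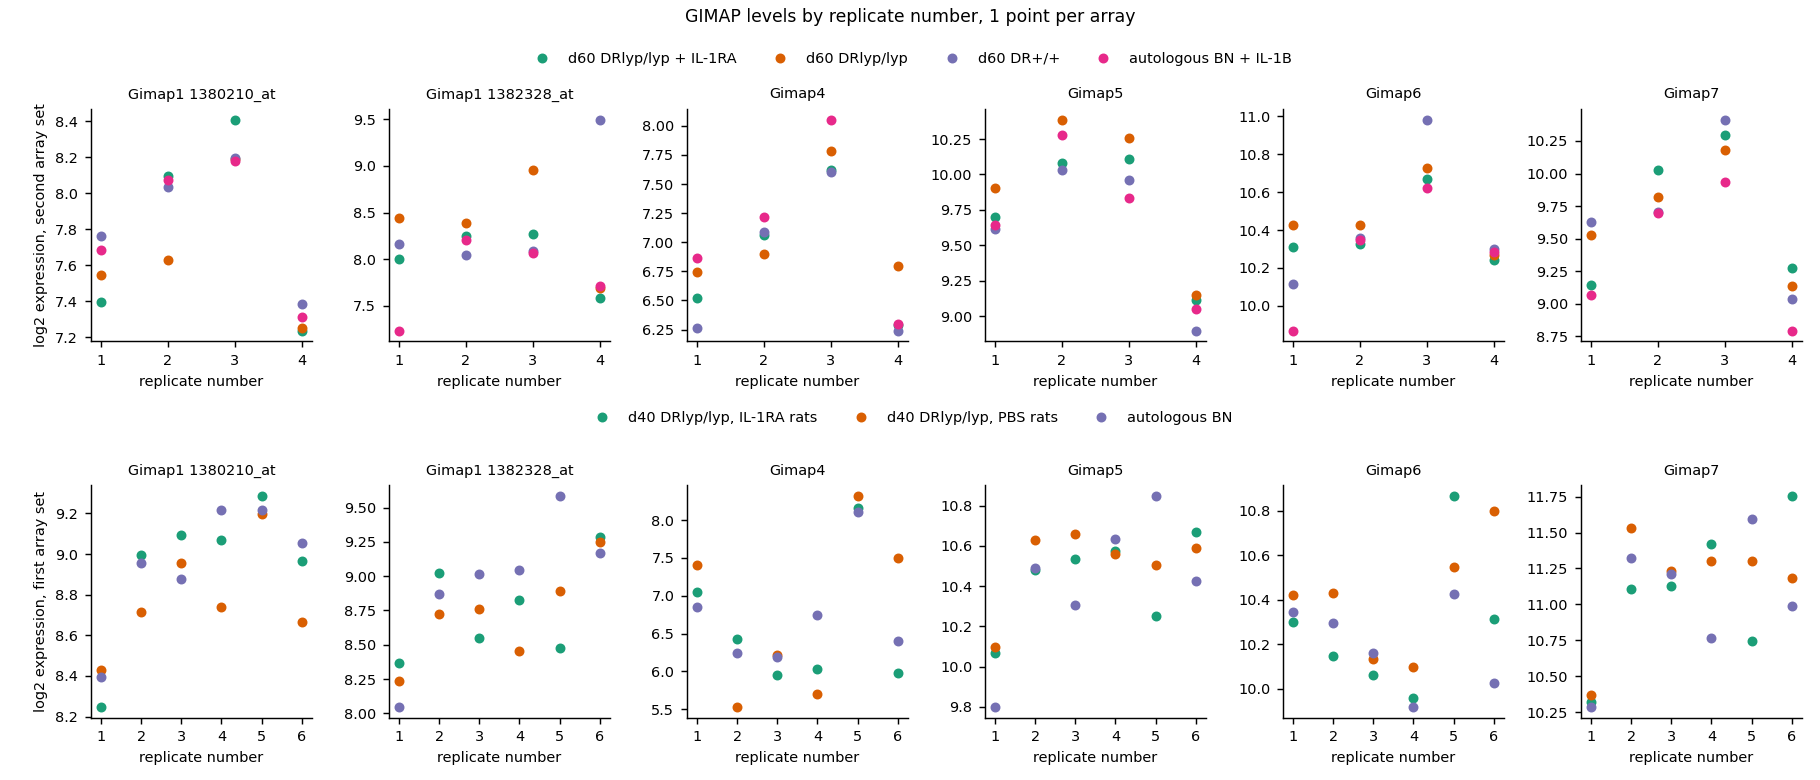
Log2 expression of each GIMAP probe set (vertical axis) by replicate number, for the second array set (upper row, 4 sera) and the first (lower row, 3 sera), 1 point per array coloured by serum. In the upper row points of 1 number lie close together except for Gimap1 1382328_at and, at number 1, Gimap6 (9.87 to 10.43). Gimap4 of number 5 in the lower row stands at 8.11 or above under all 3 sera.

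**Figure D4:**
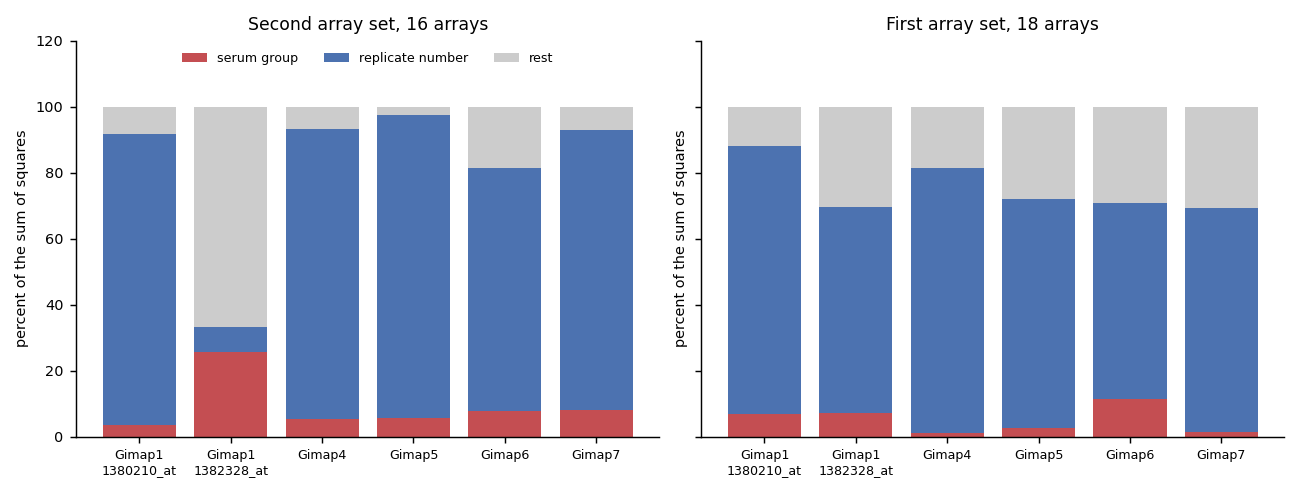
Percent of the sum of squares of each GIMAP probe set held by the serum group (red), the replicate number (blue) and the rest (grey), for 16 arrays of the second set and 18 of the first. The number holds more than the group for every probe set except Gimap1 1382328_at in the second set.

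T-cell content was measured as the mean of 19 T-cell marker genes, a proxy since no cell counts were given. It followed the replicate number too, which held 96.3% of its sum of squares in the second set and 83.0% in the first. In the second set it averaged 8.23, 8.66, 8.95 and 7.98 in numbers 1 to 4, with number 4 the lowest, as for Gimap5 and Gimap7. In the first set number 1 was the lowest, at 8.68 against 8.87 to 9.18 in the others.

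Over the 32 arrays of the second set all 6 probe sets rose with the T-cell marker mean. Gimap7 followed it most closely, with Pearson r = 0.96 and Spearman rho = 0.95, followed by Gimap1 1380210_at (r = 0.86), Gimap5 (r = 0.85), Gimap4 (r = 0.84), Gimap6 (r = 0.79) and Gimap1 1382328_at (r = 0.60). Their permutation p-values adjusted over 12 relations were 2.4e-05 for the first 5 and 0.00016 for Gimap1 1382328_at, where 1e-05 before adjustment is the smallest the resamples can give. Without the 2 arrays farthest from the median of the marker mean, r lay between 0.57 and 0.95. Among the r of all probe sets over the 32 arrays (median -0.13), Gimap1 1382328_at stood at percentile 95.2 and the other members at 99.5 or above. Arrays that share a number moved together, so they are not independent and these p-values are too small. The 12 allogeneic arrays have no number in common, and among them, in a check added after the values were seen, Gimap7 gave r = 0.95 (rho = 0.96, permutation p adjusted over 6 relations = 0.00012), Gimap4 r = 0.87 (0.00045) and Gimap5 r = 0.85 (0.001). Gimap6 gave r = 0.68 with rho = 0.39, and Gimap1 1380210_at gave r = 0.73 with rho = 0.73 (permutation adjusted p of rho = 0.0118). Without the 2 farthest arrays, over 10 arrays, Gimap6 (r = 0.50) and Gimap1 1380210_at (r = 0.43) no longer passed. The pass of their r thus depended on the arrays included. The labels do not say whether the 12 allogeneic arrays repeat a cell donor, so their p-values may be too small as well.

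Over the 21 arrays of the first set the members split. Gimap7 (r = 0.82, rho = 0.67), Gimap5 (r = 0.81, rho = 0.65) and Gimap1 1382328_at (r = 0.76, rho = 0.68) rose with the T-cell marker mean, with permutation p-values adjusted over 12 relations of 5.1e-05, 5.1e-05 and 7.5e-05. Here too arrays of 1 number are not independent, number 1 is the lowest for the marker mean and for each of these 3 probe sets, and the p-values of the first set are too small. Gimap1 1380210_at gave r = 0.55 (rho = 0.34, adjusted p = 0.0126) and r = 0.35 without the 2 farthest arrays, so that relation rests on them. Gimap6 (r = 0.19) and Gimap4 (r = -0.03) did not pass (permutation adjusted p of 0.453 and 0.906). Among the r of all probe sets (median -0.05), Gimap7, Gimap5 and Gimap1 1382328_at stood at percentile 99.2 or above. Gimap1 1380210_at stood at 90.95, Gimap6 at 67.7 and Gimap4 at 52.1. The choice of markers mattered in this set, since against the CD3 chain genes alone Gimap6 gave r = 0.80 and Gimap4 r = 0.53, while Gimap7 gave r = 0.44 and Gimap5 r = 0.38. With residuals from the group means in place of the levels, Gimap7 gave r = 0.84 and Gimap5 r = 0.81. Against the monocyte marker mean Gimap7 gave r = -0.71 in the first set and r = 0.35 in the second.

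**Figure D5:**
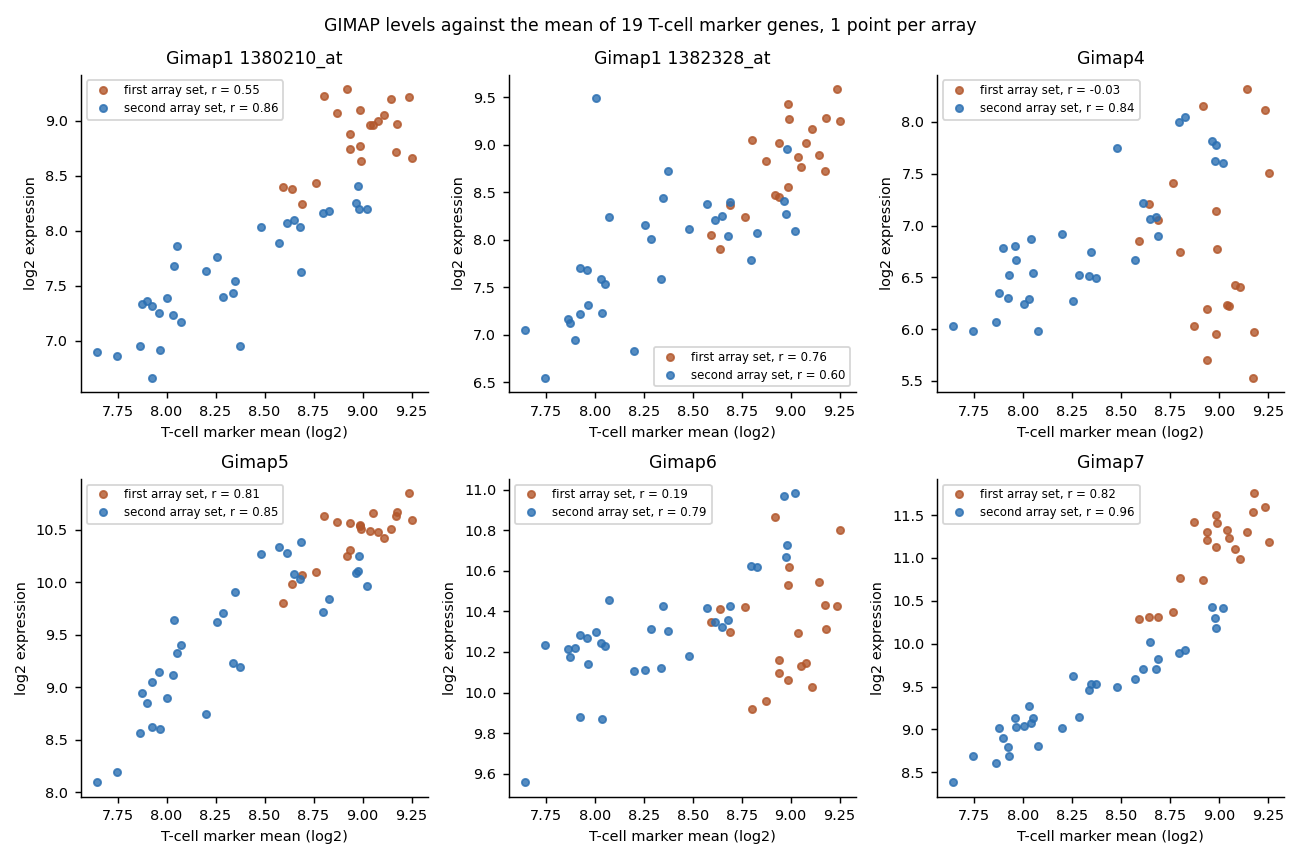
Log2 expression of each GIMAP probe set (vertical axis) against the T-cell marker mean (horizontal axis, log2), 1 point per array, first array set brown and second blue, with Pearson r of each set. Gimap7 follows the marker mean in both sets (r = 0.82 and 0.96), and Gimap4 gives r = 0.84 in the second set and r = -0.03 in the first.

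The number and the T-cell marker mean were also fitted together. In the second set, where the number holds nearly all of the marker mean, the number was then called for 1 of 6 probe sets (8.99% of all probe sets), which was Gimap5 (limma adjusted p = 0.0295). In the first set it was called for 4 of 6 (23.8% of all probe sets), namely Gimap4 (limma adjusted p = 0.000636), Gimap1 1380210_at (0.0141), Gimap6 (0.0249) and Gimap5 (0.0313). Gimap7 was called in neither set, with a limma adjusted p of 0.119 in the first and 0.968 in the second. The slope of the T-cell marker mean in these fits was called for no Gimap probe set in either set. Its lowest limma adjusted p was 0.0552, for Gimap1 1382328_at in the first set. Since the number holds most of the marker mean in both sets, these fits separate the 2 terms poorly.

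The members formed 2 groups in the first array set by their correlation with each other over 21 arrays, given as a description. Gimap5 and Gimap7 (r = 0.87) and Gimap1 1382328_at with each of them (r = 0.78 and 0.77) went together, and Gimap4 went with Gimap6 (r = 0.65), whereas Gimap4 and Gimap7 gave r = -0.29. Over the 32 arrays of the second set Gimap4 and Gimap7 gave r = 0.80, and all 15 pairs were positive. Arrays that share a number, and the T-cell marker mean, enter each of these values.

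The genes whose residuals from group means were most like each member over the 53 arrays included T-cell markers for 3 of the 5 genes. For Gimap5 the nearest was Lat (r = 0.90), followed by Gnl2, Psmb8, Sting1 and Lef1, a T-cell transcription factor (r = 0.84). For Gimap7 it was Cd247, the CD3 zeta chain (r = 0.90), followed by Otulinl, Rab3ip, Slc9a9 and Haspin. For Gimap6 they were Saraf (r = 0.84) and Cd3d, the CD3 delta chain (r = 0.83), followed by Zfp41, Tmem41a and Spcs2. Gimap4 had its nearest in Orai2, a calcium channel subunit (r = 0.76), followed by Cox14, Pfdn2, B3gnt2 and Irf2bp2, and Gimap1 1382328_at in Med31 (r = 0.89), followed by Gas5, Xpa, Arpp21 and Med21. Of 18 T-cell markers ranked among 9037 genes, 7 were among the 100 most like Gimap5 and 7 among those most like Gimap7. The counts were 3 for Gimap4, 2 for Gimap6 and 1 for Gimap1 1382328_at.

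Between the array sets, autologous arrays alone can be set side by side, as a description with no test. Gimap7 averaged 11.03 ± 0.46 in the first set (SD, n = 6) and 9.43 ± 0.75 in the second (SD, n = 4), a difference of 1.60. Gimap1 1380210_at differed by 1.28, Gimap1 1382328_at by 0.96 and Gimap5 by 0.75, all higher in the first set. Gimap4 differed by -0.05 and Gimap6 by -0.32. The ranges did not overlap for 1 of 6, Gimap1 1380210_at, where 32.7% of all probe sets had ranges that did not overlap. The median difference over all probe sets was -0.16 and that of the 19 T-cell markers was 0.36, with 12 of 19 higher in the first set, and that of 7 erythroid markers was -1.54.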

How the data were processed

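The deposited table held log2 expression values of 31099 probe sets on 53 Affymetrix rat arrays. RMA and Partek 6.2 are named in the submitters' processing notes. RMA subtracts background, quantile-normalises the arrays and combines the probes of a set, which shrinks differences of dim probe sets. Further settings are not given in the sources used here. After 57 control probe sets were left out, 31042 were tested. The annotation gave 1 gene symbol for 20826, several for 436 and none for 9780.

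Array sets came from Ward clustering without Gimap probe sets, and complete linkage placed 53 of 53 arrays alike. Means of each group within each set were fitted to all arrays with limma 3.58.1 in R 4.3.3, with a variance trend on mean expression. A probe set was called at a Benjamini-Hochberg adjusted p under 0.05. The fit was tested on simulated data. Correlations had two-sided permutation p-values from 100000 resamples (numpy 2.4.6). Marker levels used the probe set of highest mean per gene.

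Every Gimap probe set is named. For each gene, the 5 genes with the highest residual correlation among probe sets above the median level are named, leaving out unnamed loci, and from each list up to 4 called genes.

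The members and lists were chosen with earlier results of these data known. The allogeneic reference, the difference between sets, the replicate-number fits and their left-out arrays, the correlation in 12 arrays and the promoter motifs were added after values or sequences had been seen.

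Replicate numbers paired the arrays, with the lowest residual correlation of same-numbered arrays above 0.1, in DRlyp/lyp against DR+/+ serum (0.175), serum of IL-1RA-treated against PBS-treated rats (0.401) and serum of IL-1RA-treated rats against autologous serum (0.129). The labels do not give the source of the pairing. Alternatives changed the normalisation, filter, variance model, array weights, covariates, array set, block, reference and arrays included.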

Additional observations from a re-analysis of the deposited data

Results flagged for a closer look

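Of 48 combinations of a Gimap probe set with a group of 4 to 10 arrays, 7 held 1 array far from the others by Dixon's test at the 95% level, where chance marks about 1 in 20. Replicate 1 of the first array set was the lowest in 3 of them, for Gimap1 1380210_at with serum of IL-1RA-treated 40-day rats (8.247, others 8.966 to 9.286), and for Gimap5 (10.099, others 10.503 to 10.657) and Gimap7 (10.367, others 11.183 to 11.534) with serum of PBS-treated rats. Gimap4 was high in autologous replicate 5 of the first set (8.113, others 6.191 to 6.848) and in DRlyp/lyp serum replicate 3 of the second (7.782, others 6.744 to 6.902). Gimap1 1382328_at was high in DR+/+ serum replicate 4 (9.495, others 8.042 to 8.16) and low in autologous replicate 10 (6.949, others 8.24 to 8.411).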

How the results depend on the processing

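In the 10 comparisons within an array set, the count of 0 of 6 Gimap probe sets called held in every fit that left out 1 array, where the lowest limma adjusted p was 0.0535 (allogeneic over autologous serum, second set), and under all other planned settings except pooling. Pooling the array sets called 4 probe sets as lower with allogeneic than with autologous serum, with 12614 of 31042 probe sets called in all, and turned Gimap7 of the first set to -0.91 (0.05 within the set). The pooled contrast mixes array set with serum. Allogeneic serum as the reference, added later, called 2 for DRlyp/lyp and 1 for DR+/+ serum. With the replicate block, possible in 7 comparisons, 0 of 6 were called in each, and the lowest limma adjusted p was 0.388. Equal numbers marked matched arrays in only some of these. For allogeneic over autologous serum of the second set, same-numbered arrays had a mean residual correlation of -0.01. The block joins unmatched arrays there and cannot decide. No block was fitted for the 60-day or IL-1B groups against autologous serum, which share no number. Against the monocyte in place of the T-cell marker mean, 6 of 12 correlations passed, with opposite signs in the 2 sets. Those of the first set were negative (r from -0.71 to -0.50) and those of the second positive (r = 0.40 and 0.54). No share over all probe sets was taken for the monocyte mean. Against the CD3 chains alone Gimap4 of the first set gave r = 0.53 in place of -0.03. The cause was not tested. Over all probe sets, leaving out 1 array moved the count called for DR+/+ over autologous serum between 43 and 1118, and for allogeneic over autologous serum between 0 and 978 in the first set and 0 and 780 in the second. Of 906 alternative values of the 60 differences, 101 had the opposite sign with neither value called, and in 18 of these both were over 0.1 in size. Groups of 3 to 6 arrays limit what these comparisons can show.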
